A study of Mus musculus with 18 samples.

Results

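Aminoacyl-tRNA synthetases were followed as a gene family in RNA-seq of 2 lung cancer lines from the mouse, each with altered levels of the kinase DSTYK. The family was taken by gene symbol, as the protein-coding genes named by an amino acid letter followed by "ars", with Farsa, Farsb, Eprs and Qars added. This gave 38 of the 36047 genes with a listed transcript, of which 20 encode cytosolic enzymes, 17 have names ending in 2 and encode mitochondrial enzymes, and 1, Tarsl2, is a cytosolic paralogue of the threonyl enzyme that was kept apart. All 38 passed the filter on low counts in every comparison.

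RNA was sequenced from 6 groups of 3 libraries. LLC, a Lewis lung carcinoma line of C57BL/6 origin labelled lung adenocarcinoma, carried the sh3 construct in the TPLKO vector or the empty TPLKO vector, and both groups received doxycycline. UN-SCC679, a line of A/J origin labelled lung squamous carcinoma, carried sh3 in TPLKO or empty TPLKO, again with doxycycline in both, or OE_DSTYKwt in the pLENTI6 vector or empty pLENTI6, for which no treatment is named. A single knockdown construct was used, the labels name neither separate cultures nor clones, and p-values therefore reflect only how these libraries vary, which may be technical.

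Aminoacyl-tRNA synthetases join each amino acid to its tRNA and so supply the ribosome with charged tRNAs. Cytosolic and mitochondrial translation mostly use separate enzymes, although Gars and Kars each encode both forms, and mitochondrial glutaminyl-tRNA is made by Ears2 together with an amidotransferase. Several cytosolic enzymes sit in a multi-synthetase complex held by the scaffold proteins Aimp1, Aimp2 and Eef1e1, and many cytosolic synthetase genes are known targets of ATF4, the transcription factor of the amino acid and integrated stress response.

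The ATF4 response is read through a C/EBP-ATF response element, whose core can be written TTNCATCA. In the RefSeq promoter windows on GRCm38.p6, which run from 250 bases before to 50 bases after a gene's start, these letters stood on either strand in 1304 of 32851 windows, or 3.97%. Of the synthetases, 28 had a window, and 5 of these held the letters. All 5 were cytosolic (5 of 13 cytosolic windows), and 0 of 14 mitochondrial windows held them. The stricter form TTGCATCA stood in 0.895% of all windows and in 4 synthetase windows; any such match is also a match to the wider form. A match describes the letters and is not evidence of binding. The stretches below show where the letters lie in these genes, 30 bases each, 5′ to 3′ on the gene's strand, with the match in capitals; in Yars the letters are on the opposite strand and are printed as their reverse complement.
Aars, chr8:111033840-111033869, + strand: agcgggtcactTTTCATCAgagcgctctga
Gars, chr6:55037960-55037989, + strand: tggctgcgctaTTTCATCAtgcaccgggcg
Iars, chr13:49682126-49682155, + strand: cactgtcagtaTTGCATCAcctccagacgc
Tars, chr15:11399655-11399684, - strand: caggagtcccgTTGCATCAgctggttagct
Yars, chr4:129189895-129189924, + strand: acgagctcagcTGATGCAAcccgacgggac

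Libraries held between 40525385 and 46528071 estimated counts. Dstyk had 22.9, 24.1 and 22.7 CPM (counts scaled by library size and the TMM factor) in LLC sh3, against 43.2, 41.0 and 45.3 CPM in LLC empty TPLKO. It had 26.8, 26.8 and 25.3 CPM in UN-SCC679 sh3, against 36.6, 36.5 and 38.3 CPM in empty TPLKO, and 36.7, 36.8 and 38.0 CPM in OE_DSTYKwt, against 29.0, 30.5 and 31.9 CPM in empty pLENTI6. The groups did not overlap in any of these pairs and the direction fitted each label. The rise in OE_DSTYKwt was small, however, with a mean of 37.2 CPM against 30.5 CPM in empty pLENTI6. UN-SCC679 empty TPLKO had a mean of 37.1 CPM. Replicate 1 of empty pLENTI6 stood apart, with a mean chi-square per gene of 12.18 and 13.82 against its fellow libraries, where the highest value of any other pair was 5.04, so results that use it are also given without it. Of the 6 squamous markers, 0 reached 1 TPM (a level adjusted for transcript length and library size) in LLC. In UN-SCC679, 4 reached it in at least 1 library. By group this was 4 in sh3, 2 in empty TPLKO, 4 in OE_DSTYKwt and 3 in empty pLENTI6. Over all UN-SCC679 libraries Sox2 lay between 27.0 and 71.4 TPM and Krt6a between 0.289 and 62.2 TPM. Krt14 lay between 0.685 and 17.3 TPM, Trp63 between 0.891 and 6.24 TPM, and Krt5 and Dsg3 were at or near 0. Nkx2-1, a lung adenocarcinoma marker, reached at most 0.0777 TPM in LLC and lay between 27.7 and 43.2 TPM in UN-SCC679. Of the 6 alveolar and club cell markers it came from, only Krt7 also reached 1 TPM in UN-SCC679, at 1.2 to 74.7 TPM. Napsa, Sftpc, Sftpb and Scgb1a1 stayed under 1 TPM there, and in LLC only Napsa reached 1 TPM, at most 1.26. Some defining markers of the labelled tumour type were thus absent in each line. Leukocyte and endothelial markers stayed under 1 TPM in every library.

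Cytosolic synthetases, by their medians, were expressed above the mitochondrial ones in every group. In LLC sh3 the median of the 20 cytosolic genes was 171.5 TPM, with a range from 76.8 TPM for Hars to 490 TPM for Nars, against a median of 217 TPM in LLC empty TPLKO, with Farsa lowest at 76.8 TPM and Nars highest at 664 TPM. In UN-SCC679 the medians were 112 TPM in sh3, 150 TPM in empty TPLKO, 132.5 TPM in OE_DSTYKwt and 122.5 TPM in empty pLENTI6, with Yars, the tyrosyl enzyme, lowest in all 4 groups. The mitochondrial medians lay between 15.4 and 22.7 TPM over the 6 groups. Mars2, the mitochondrial methionyl enzyme, was the lowest of all in UN-SCC679 sh3 at 3.93 ± 0.0622 TPM (SD, n = 3), and Wars2 the lowest in LLC sh3 at 5.55 ± 1.05 TPM (SD, n = 3). The coefficient of variation of a member between libraries of a group had a median of 1.97%.

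**Figure D1:**
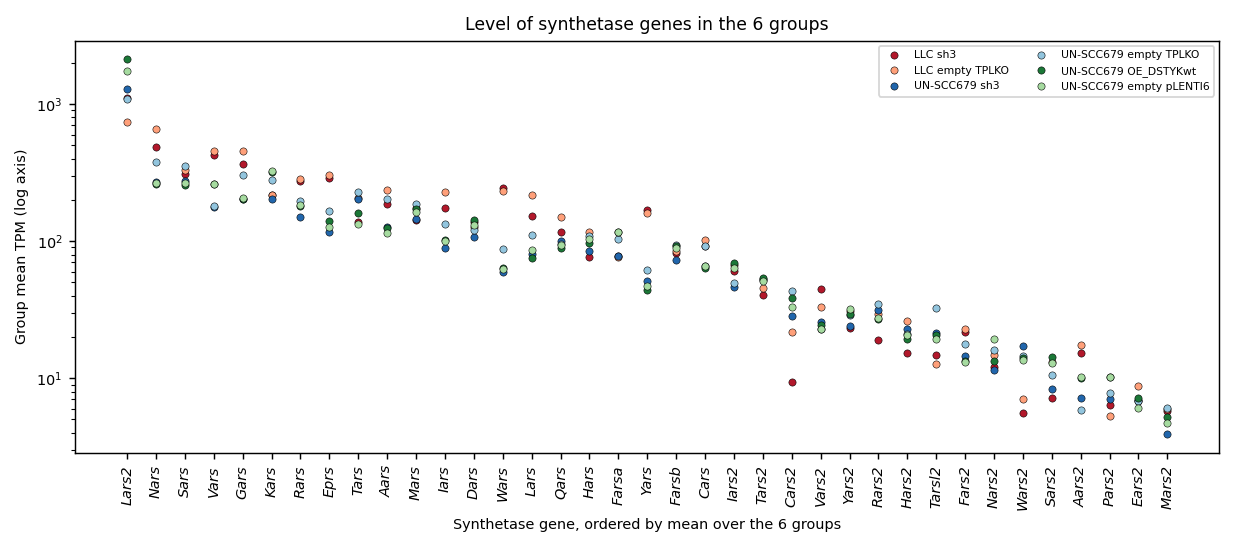
Mean TPM on a log axis (vertical) of 37 synthetase genes (horizontal, ordered by mean over the groups) in the 6 groups (colours, n = 3 libraries each). Lars2 lies above all other members in every group, and Tarsl2 and the mitochondrial genes other than Lars2 fill the lower end, down to 3.93 TPM for Mars2 in UN-SCC679 sh3.

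Lars2, the mitochondrial leucyl enzyme, was listed far above the rest of its class, and its counts need a separate reading. Between 96.9% and 98.9% of them were assigned to a transcript of 3756 bases that is annotated as subject to nonsense-mediated decay. This decay transcript had 1111, 1062 and 1102 TPM in LLC sh3, against 689, 706 and 751 TPM in LLC empty TPLKO. The protein-coding transcript, of 3894 bases, had 14.5 ± 1.73 TPM in LLC sh3 and 19.0 ± 2.28 TPM in LLC empty TPLKO (SD, n = 3 each). The 2 transcripts thus went opposite ways, although only 6 bases of the decay transcript lie outside the protein-coding one. Lars2 is therefore reported with every sum over the mitochondrial class given without it, and the source of its counts was not tested.

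**Figure D2:**
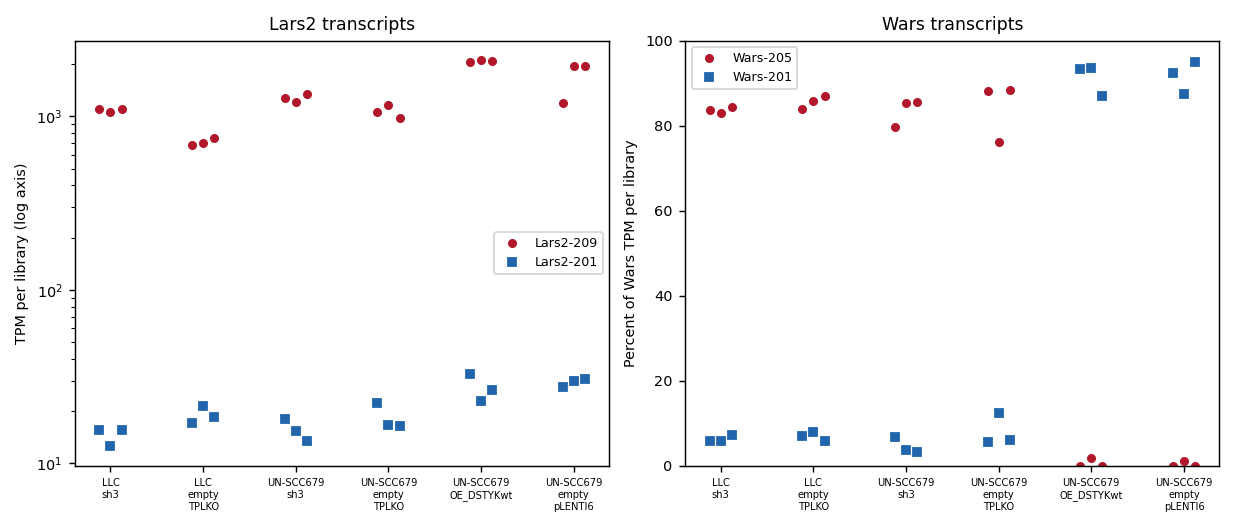
Left, TPM on a log axis of the decay transcript (red circles) and the protein-coding transcript (blue squares) of Lars2 in each library; right, percent of Wars TPM assigned to Wars-205 (red circles) and to the other main protein-coding transcript (blue squares) in each library, over the 6 groups. The decay transcript lies between 689 and 2116 TPM and the protein-coding one between 12.5 and 32.7 TPM, and the main Wars transcript differs between the TPLKO and the pLENTI6 libraries.

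The first comparison asked what the sh3 construct did in LLC. Most cytosolic synthetases fell: 13 of 20 were lower in sh3, 4 were higher and 3 were not called (edgeR's quasi-likelihood test, Benjamini-Hochberg adjusted p under 0.05), with a median log2 change of -0.12. Over all 13767 genes tested, 72.6% were called, 36.2% higher and 36.4% lower, with a median of 0.01. The groups did not overlap for 17 of the 20, where this held for 75.9% of all genes. The mitochondrial class gave 10 lower, 3 higher and 4 not called of 17, again with a median of -0.12. Summed over the cytosolic class, the level was 4166 ± 42.3 TPM in sh3 and 4822 ± 39.4 TPM in empty TPLKO (SD, n = 3 each). Without Lars2 the mitochondrial sum was 322 ± 4.39 TPM in sh3 and 382 ± 7.13 TPM in empty TPLKO (SD, n = 3 each). In bulk RNA, less RNA per cell and fewer cells of a kind cannot be told apart.

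Tars, the cytosolic threonyl enzyme, had the largest fall of its class in LLC. It had 222, 219 and 223 CPM in sh3, against 346, 332 and 345 CPM in empty TPLKO, and its log2 change was -0.62 ± 0.019 (SE; edgeR adjusted p = 1.37e-11). Its libraries did not overlap between the groups. Hars, the histidyl enzyme, had 91.2, 92.6 and 90.4 CPM in sh3, against 138, 137 and 137 CPM in empty TPLKO, with a log2 change of -0.58 ± 0.0206 (SE). Lars, the leucyl enzyme, had 339, 332 and 338 CPM in sh3, against 469, 470 and 468 CPM in empty TPLKO, with a log2 change of -0.48 ± 0.0144 (SE). Nars, the asparaginyl enzyme, fell by 0.43 on the log2 scale, to 682 ± 9.14 CPM in sh3, against 920 ± 5.03 CPM in empty TPLKO (SD, n = 3 each). Each of these falls was larger than the spread between libraries. The other 9 cytosolic genes called lower lay between -0.39 for Iars and -0.05 for Yars, and Yars turned to 0.07 when effective transcript length was taken into account.

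The rises in the cytosolic class were small. Dars, the aspartyl enzyme, had 179, 180 and 184 CPM in sh3, against 165, 165 and 163 CPM in empty TPLKO, a log2 change of 0.14 ± 0.0191 (SE; edgeR adjusted p = 1.77e-05). Vars, the valyl enzyme, had 748, 755 and 748 CPM in sh3, against 696, 703 and 727 CPM in empty TPLKO, a log2 change of 0.09 that became -0.08 when effective transcript length was taken into account. Kars and Wars, the lysyl and tryptophanyl enzymes, each had a log2 change of 0.04. Their adjusted p-values were 0.0429 for Kars and 0.0235 for Wars, and leaving out 1 library ended the call in 5 of 6 fits for each. The count of cytosolic genes higher was therefore 2 without sh3 replicate 2 or 3, or without empty TPLKO replicate 1 or 3. Farsa, Farsb and Rars were not called, with log2 changes of 0.03, -0.04 and -0.02.

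Tarsl2 moved against Tars in this line. It had 25.9, 26.9 and 28.5 CPM in sh3, against 20.3, 18.3 and 19.5 CPM in empty TPLKO, and its log2 change was 0.49 ± 0.0511 (SE; edgeR adjusted p = 1.77e-06). The libraries did not overlap. Tars remained the more abundant of the pair, with 138 ± 3.87 TPM in sh3, where Tarsl2 had 14.7 ± 1.39 TPM (SD, n = 3 each). In LLC empty TPLKO Tarsl2 had 12.6 ± 0.71 TPM (SD, n = 3), so its rise was smaller in TPM than in CPM.

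The mitochondrial synthetases held the largest falls of the family in LLC. Cars2, the cysteinyl enzyme, had 10.5, 9.96 and 10.4 CPM in sh3, against 22.4, 24.0 and 21.7 CPM in empty TPLKO, a 2.2-fold fall (log2 change -1.14 ± 0.0577 SE; edgeR adjusted p = 1.37e-09). The share of Cars2 TPM on its main protein-coding transcript was 19.7% ± 3.97 in sh3 and 56.5% ± 2.16 in empty TPLKO (SD, n = 3 each). Sars2, the seryl enzyme, had 7.7, 7.8 and 8.1 CPM in sh3, against 13.8, 14.4 and 15.6 CPM in empty TPLKO, a log2 change of -0.89 ± 0.0688 (SE). Wars2 and Hars2, the tryptophanyl and histidyl enzymes, fell by 0.74 and 0.64 on the log2 scale. None of these 4 genes had overlapping libraries. Rars2, Ears2, Yars2, Tars2 and Iars2 were also lower, between -0.58 for Rars2 and -0.12 for Iars2, and Aars2, Fars2, Mars2 and Nars2 were not called. Those that were higher were Lars2 at 0.60, Pars2 at 0.37 and Vars2 at 0.29, and Lars2 turned to -0.36 when only protein-coding transcripts were counted.

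In UN-SCC679 the same construct was accompanied by lower levels across nearly the whole cytosolic class. Of the 20 cytosolic genes, 19 were lower in sh3 and 1, Qars, was higher, with a median log2 change of -0.41. Over the 14271 genes tested, 63.8% were called, 31.8% higher and 32.0% lower, with a median of 0.01. The libraries of the groups did not overlap for any of the 20, where 68.1% of all genes did not overlap. The cytosolic sum was 2665 ± 13.9 TPM in sh3 and 3489 ± 42.9 TPM in empty TPLKO (SD, n = 3 each). Mitochondrial members were split, with 9 lower, 4 higher and 4 not called of 17 and a median of -0.09. With library size scaling alone 5 were lower, and on protein-coding transcripts alone 2 were higher.

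Aars, the alanyl enzyme, fell most. It had 368, 367 and 363 CPM in sh3, against 600, 610 and 618 CPM in empty TPLKO, a 1.67-fold fall (log2 change -0.74 ± 0.0175 SE; edgeR adjusted p = 1.88e-11). The last 1326 bases of an Aars transcript equal the whole Exosc6 transcript, which was listed at 0 in every library, so reads of Exosc6 may be counted as Aars. Gars, the glycyl enzyme, had 289, 287 and 284 CPM in sh3, against 422, 427 and 429 CPM in empty TPLKO, a log2 change of -0.57 ± 0.0175 (SE). Wars had 96.2, 91.0 and 94.0 CPM in sh3, against 140, 138 and 140 CPM in empty TPLKO, with a log2 change of -0.57 ± 0.0257 (SE). Iars, the isoleucyl enzyme, had 225 ± 2.56 CPM in sh3 and 330 ± 2.56 CPM in empty TPLKO (SD, n = 3 each), a log2 change of -0.55. In each of these genes every sh3 library lay below every empty TPLKO library.

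Farsa and Farsb, the subunits of the cytosolic phenylalanyl enzyme, fell by 0.41 and 0.39 on the log2 scale in UN-SCC679. The ratio of Farsa to Farsb in TPM was 1.1, 1.15 and 0.977 in sh3 libraries, against 1.14, 1.04 and 1.15 in empty TPLKO libraries, so the groups overlapped. Eprs, which joins the glutamyl and prolyl enzymes in a single chain, had 339, 343 and 341 CPM in sh3, against 480, 496 and 496 CPM in empty TPLKO. Kars had 249, 245 and 250 CPM in sh3, against 333, 332 and 334 CPM in empty TPLKO, a log2 change of -0.43 ± 0.0181 (SE). The smallest fall was that of Vars, at -0.07, and its call was lost with library size scaling alone, with the effective length offset and on protein-coding transcripts alone. Qars, the glutaminyl enzyme, had 106, 107 and 105 CPM in sh3, against 90.5, 95.8 and 95.6 CPM in empty TPLKO, a log2 change of 0.17 ± 0.0275 (SE; edgeR adjusted p = 0.000211). With effective transcript length taken into account its change was 0.09 and was not called.

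Of the mitochondrial enzymes in UN-SCC679, Cars2 had 29.5, 28.8 and 28.4 CPM in sh3, against 44.1, 43.5 and 46.3 CPM in empty TPLKO, a log2 change of -0.63 ± 0.037 (SE; edgeR adjusted p = 3.64e-08). Mars2 had 27.4, 27.0 and 26.3 CPM in sh3, against 40.7, 41.7 and 41.1 CPM in empty TPLKO, a log2 change of -0.61 ± 0.0353 (SE). Nars2 and Sars2 fell by 0.56 and 0.33, the remaining 5 that were lower lay between -0.26 for Fars2 and -0.09 for Iars2, and Ears2, Hars2, Tars2 and Vars2 were not called. Aars2 rose by 0.31, Lars2 by 0.25 and Wars2 by 0.23. On protein-coding transcripts alone Lars2 was at -0.23. Tarsl2 fell here, with 34.2, 36.4 and 34.4 CPM in sh3, against 49.6, 48.4 and 49.0 CPM in empty TPLKO.

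**Figure D3:**
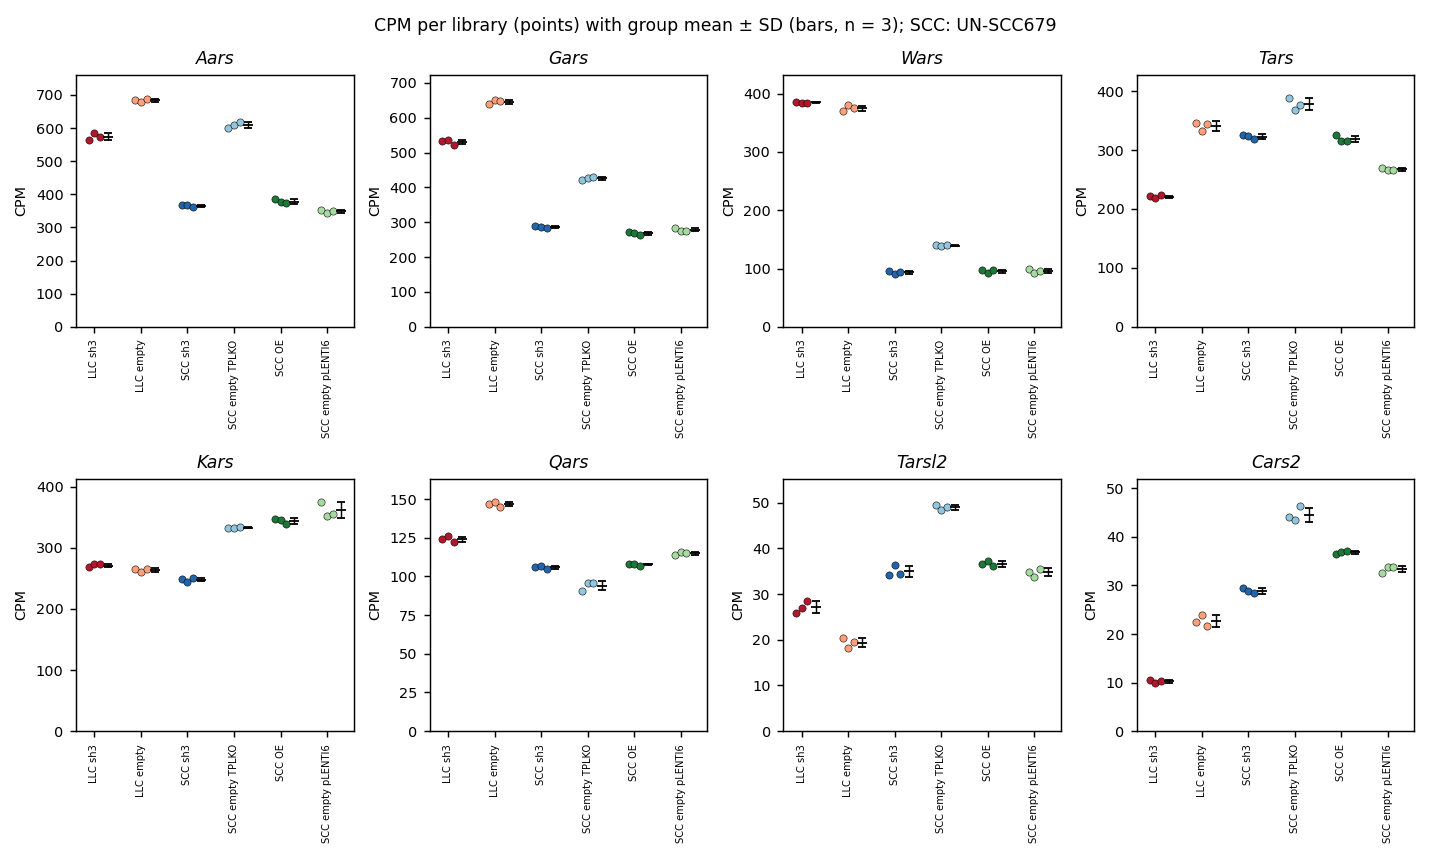
CPM of 8 synthetase genes (vertical, from 0) in each library (points) of the 6 groups, with the group mean ± SD beside them (n = 3). Aars, Gars and Wars are lower in UN-SCC679 sh3 than in UN-SCC679 empty TPLKO, and their sh3 levels lie near those of the pLENTI6 groups; Tarsl2 is higher in LLC sh3 and lower in UN-SCC679 sh3.

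The enzymes of the multi-synthetase complex and its scaffolds were examined as a unit. In UN-SCC679, 7 of the 8 complex enzymes were lower in sh3 and Qars was higher, with a median of -0.42. In LLC, 5 were lower, 2 were higher and Rars was not called, with a median of -0.15. The whole cytosolic class, which includes them, had medians close to these, -0.41 in UN-SCC679 and -0.12 in LLC. It had 19 of 20 lower in UN-SCC679 and 13 of 20 in LLC, where 32.0% and 36.4% of all genes were lower. Nothing particular to the complex enzymes is read from their counts. Aimp2, a scaffold, had 36.5, 36.3 and 35.9 CPM in LLC sh3, against 56.8, 57.0 and 57.7 CPM in LLC empty TPLKO, a log2 change of -0.65 ± 0.0296 (SE). In UN-SCC679 it had 51.6, 55.4 and 53.4 CPM in sh3, against 80.5, 91.1 and 86.3 CPM in empty TPLKO, a log2 change of -0.69 ± 0.0442 (SE). Aimp1 fell by 0.25 in LLC and by 0.19 in UN-SCC679. Eef1e1 went opposite ways, with a log2 change of 0.30 in LLC and -0.47 in UN-SCC679, and the difference of 0.76 ± 0.0517 (SE) between the lines was called (edgeR adjusted p = 2.26e-09).

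Cytosolic synthetases known as ATF4 targets were read beside Atf4 itself. Atf4 had 585, 582 and 600 CPM in LLC sh3, against 754, 750 and 762 CPM in LLC empty TPLKO, and 234, 239 and 230 CPM in UN-SCC679 sh3, against 337, 330 and 342 CPM in UN-SCC679 empty TPLKO. Its log2 changes were -0.35 ± 0.015 in LLC and -0.52 ± 0.0213 in UN-SCC679 (SE). Of the 12 target synthetases, 11 were lower and 1, Wars, was higher in LLC, with a median of -0.25. In UN-SCC679 all 12 were lower, with a median of -0.50. The whole cytosolic class, which includes them, had 13 of 20 lower in LLC and 19 of 20 in UN-SCC679, with medians of -0.12 and -0.41. Outside the target list, the cytosolic genes lower in LLC were Hars and Qars, at -0.58 and -0.24. The others there were higher (Dars, Kars and Vars) or not called (Farsa, Farsb and Rars). In UN-SCC679 every cytosolic gene outside the list except Qars was lower as well. Of all genes tested, 36.4% were lower in LLC and 32.0% in UN-SCC679. The list of Atf4 and its other targets gave 12 lower and 5 higher of 21 tested in LLC, and 16 lower and 4 higher of 22 in UN-SCC679. The log2 changes in this list ran from -0.79 to 0.70 in LLC and from -0.96 to 3.54 in UN-SCC679. Of its genes, Chac1 fell by 0.53 in LLC and by 0.80 in UN-SCC679. The amino acid transporter Slc7a5 fell by 0.51 in LLC and by 0.76 in UN-SCC679, and Ddit3 had log2 changes of 0.70 in LLC and -0.90 in UN-SCC679. The lists were drawn up with results of these libraries known, and the genes of the lists overlap with the cytosolic class.

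Other steps of tRNA use were read from small lists, whose counts stand beside a share called of 72.6% of all genes in LLC and 63.8% in UN-SCC679; editing genes, for example, were called at 71.4% in each line. Xpot, which exports tRNAs from the nucleus, fell by 0.44 on the log2 scale in LLC sh3 and by 0.47 in UN-SCC679 sh3. Of the 6 genes of cytosolic elongation and tRNA export, 3 were higher and 2 lower in each line. Gatb, a subunit of the mitochondrial amidotransferase, fell by 1.27 in LLC and by 0.25 in UN-SCC679, and of the 8 genes of that list 4 were lower in LLC and 6 in UN-SCC679. Eif2ak4, the kinase that senses uncharged tRNA, had a log2 change of 0.76 in LLC and was not called in UN-SCC679 at 0.09. Of the 5 genes of the selenocysteine pathway, all were lower in UN-SCC679 sh3, while LLC had 3 lower and 1 higher. The 9 genes of uncharged tRNA sensing and eIF2 phosphorylation gave 5 lower and 4 higher in LLC and 6 lower and 1 higher in UN-SCC679, and the 7 of tRNA editing gave 2 lower and 3 higher in LLC and 4 lower and 1 higher in UN-SCC679.

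Summed marker levels moved with sh3 as well. The sum of 4 fibroblast markers lay between 25.6 and 26.5 TPM in LLC sh3 and between 17.7 and 19.4 TPM in LLC empty TPLKO, with all 4 markers at 1 TPM or more. In UN-SCC679 it lay between 408 and 420 TPM in sh3 and between 231 and 234 TPM in empty TPLKO, with 3 of 4 markers at 1 TPM or more and Dcn under 1 TPM. Of the epithelial markers, Krt8 and Krt18 carried the sum in UN-SCC679, which lay between 337 and 354 TPM in sh3 and between 540 and 565 TPM in empty TPLKO, with Epcam and Cdh1 under 1 TPM. The squamous sum there reached at most 53.3 TPM in sh3 and at most 37.6 TPM in empty TPLKO, and every sh3 library was above every empty one. In LLC the epithelial sums overlapped, at no more than 41.8 TPM in sh3 and between 39.1 and 44.2 TPM in empty TPLKO. The part of these markers in the synthetase results was not tested.

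The sh3 effects in the 2 lines were then compared directly. The effect differed for 34 of the 38 members, where 59.9% of all 15399 genes differed, 28.1% in the positive and 31.9% in the negative direction. In 15 of the 20 cytosolic genes the difference, LLC minus UN-SCC679, was positive, and in 3, Hars, Tars and Qars, it was negative. Wars differed by 0.61 ± 0.0277 and Aars by 0.48 ± 0.0248 (SE; edgeR adjusted p = 1.68e-11 and 6.7e-11). Tars differed by -0.40 ± 0.0301 (SE). Tarsl2 had the largest positive difference, 0.97 ± 0.0625, and Wars2 the largest negative, -0.97 ± 0.0721 (SE). For Lars the difference was -0.01 ± 0.0252, for Nars 0.02 ± 0.0216, for Iars2 -0.04 ± 0.0268 and for Yars2 -0.14 ± 0.0829 (SE), and none of these was called.

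**Figure D4:**
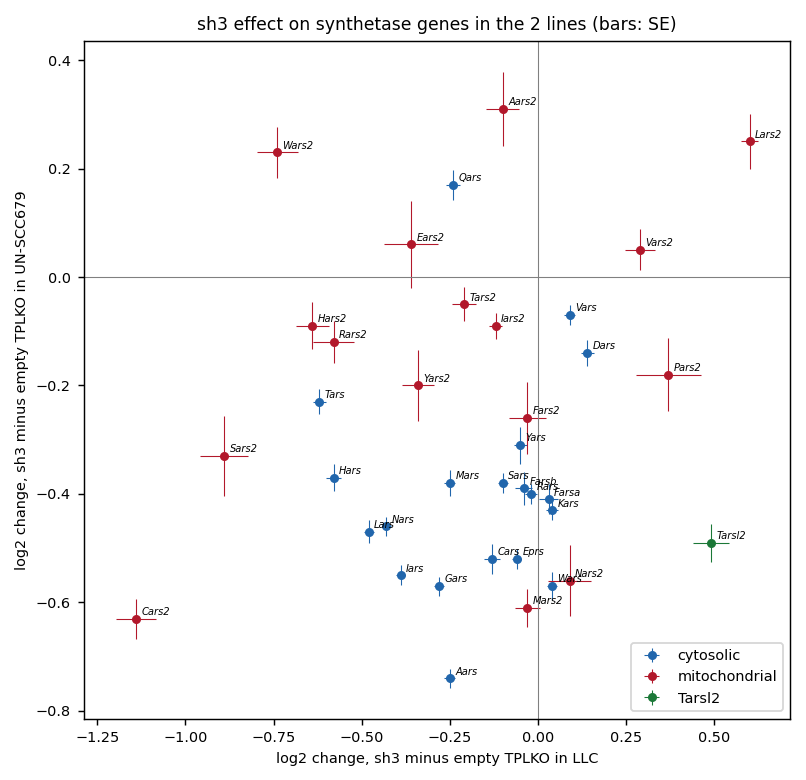
log2 change of 37 synthetase genes with sh3 in LLC (horizontal) and in UN-SCC679 (vertical), with SE bars; blue, cytosolic; red, mitochondrial; green, Tarsl2. All cytosolic genes except Qars lie below the horizontal zero line, at -0.74 for Aars, whereas along the LLC axis they spread between -0.62 for Tars and 0.14 for Dars.

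Pairs of cytosolic and mitochondrial enzymes for the same amino acid did not always move together. Of 17 pairs, both members were lower in 7 pairs in LLC and in 9 pairs in UN-SCC679, and they went opposite ways in 4 pairs in each line. Eprs was the partner of both Ears2 and Pars2. Every cytosolic partner was lower in UN-SCC679, so the counts there only repeat those of the mitochondrial class. Of all single genes tested, 36.4% were lower in LLC and 32.0% in UN-SCC679. A share for pairs of genes was not computed, so the pair counts have no like background. The cysteinyl pair fell in both lines, with Cars at -0.13 and Cars2 at -1.14 in LLC and Cars at -0.52 and Cars2 at -0.63 in UN-SCC679. The tryptophanyl pair was opposed in both, with Wars at 0.04 and Wars2 at -0.74 in LLC and Wars at -0.57 and Wars2 at 0.23 in UN-SCC679. The alanyl pair had Aars at -0.74 and Aars2 at 0.31 in UN-SCC679.

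OE_DSTYKwt was set against empty pLENTI6 to ask what added DSTYK did. The changes called were small: 4 cytosolic genes were higher, 4 lower and 12 not called, with a median of -0.04, and 3 mitochondrial genes were higher, 1 lower and 13 not called, with a median of 0.07. Over the 13975 genes tested, 29.7% were called, 14.6% higher and 15.2% lower, with a median of 0.00, and nothing particular to the family is read from the 8 of 20 cytosolic and 4 of 17 mitochondrial genes called. The groups did not overlap for 15 of the 20 cytosolic genes, where this held for 46.0% of all genes. Tars had 325, 316 and 315 CPM in OE_DSTYKwt, against 269, 266 and 266 CPM in empty pLENTI6, a log2 change of 0.26 ± 0.0252 (SE; edgeR adjusted p = 7.08e-05), and the libraries did not overlap. Aars, Eprs and Dars had log2 changes of 0.12, 0.11 and 0.10, and Lars, Hars, Yars and Qars changes of -0.19, -0.12, -0.12 and -0.10. Nars2 had 20.9, 19.6 and 19.3 CPM in OE_DSTYKwt, against 27.8, 27.9 and 27.1 CPM in empty pLENTI6, a log2 change of -0.47 ± 0.0433 (SE; edgeR adjusted p = 4.78e-05). Ears2, Cars2 and Iars2 were higher by 0.19, 0.14 and 0.11. Gars, Kars, Wars, Farsa, Farsb and Tarsl2 were not called, with log2 changes of -0.05, -0.07, 0.00, -0.04, 0.02 and 0.08, nor was Atf4, at 0.01.

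Without replicate 1 of empty pLENTI6, Iars, Mars, Vars and Lars2 were also called in OE_DSTYKwt, with log2 changes of -0.06, 0.06, -0.06 and 0.08, and 5 cytosolic genes were then higher, 6 lower and 5 mitochondrial genes higher. With all libraries, 1 mitochondrial gene was higher by DESeq2 and 1 on protein-coding transcripts alone. Without OE_DSTYKwt replicate 1, 2 cytosolic genes were higher, 2 were lower and 1 mitochondrial gene was higher, and without OE_DSTYKwt replicate 3, 2 cytosolic genes were lower. Lars2 stood at 0.27 with that library, where its decay transcript had 1204 TPM, against 1962 and 1954 TPM in its fellow libraries. The fibroblast marker sum lay between 68.4 and 68.6 TPM in OE_DSTYKwt and between 49.3 and 56.7 TPM in empty pLENTI6. The epithelial sum lay between 763 and 802 TPM in OE_DSTYKwt and between 931 and 966 TPM in empty pLENTI6, and the part of these markers was not tested.

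The effects of sh3 and OE_DSTYKwt in UN-SCC679 differed for 28 members, where 51.9% of all genes differed, 26.1% in the positive and 25.8% in the negative direction. None of the calls of named members changed without replicate 1 of empty pLENTI6. Of the 20 cytosolic genes, 18 had a lower effect under sh3, Qars a higher one and Vars was not called. The difference, sh3 minus OE_DSTYKwt, was -0.85 ± 0.0296 for Aars and -0.57 ± 0.041 for Wars (SE; edgeR adjusted p = 1.47e-11 and 3.19e-08). The vector, the doxycycline and the experiment differ between these arms as well and cannot be told apart from the construct.

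The empty vectors were compared because every effect in UN-SCC679 is read against them. Of the cytosolic synthetases, 14 were higher in UN-SCC679 empty TPLKO than in empty pLENTI6, 5 were lower and Farsb was not called, with a median of 0.37; 68.7% of the 14080 genes tested were called, 33.3% higher and 35.4% lower, with a median of -0.01. The groups did not overlap for 19 of the 20, where this held for 73.2% of all genes. All 12 ATF4-target synthetases were higher, with a median of 0.45, although Nars, at 0.45, turned to -0.54 on protein-coding transcripts alone and Mars, at 0.11, was not called with library size scaling alone or without empty TPLKO replicate 2, at 0.08 and 0.10. Aars had 600, 610 and 618 CPM in empty TPLKO, against 353, 345 and 351 CPM in empty pLENTI6, a log2 change of 0.78 ± 0.0272 (SE; edgeR adjusted p = 6.6e-09). Gars and Sars had log2 changes of 0.59 and 0.54. Vars, Qars and Kars were lower, at -0.74, -0.31 and -0.14, and Qars turned to 0.08 when effective transcript length was taken into account and was not called on protein-coding transcripts alone, at -0.08. Of the mitochondrial genes, 5 were higher and 9 lower, with Fars2, Cars2 and Mars2 at 0.46, 0.40 and 0.40 and Aars2 and Nars2 at -0.71 and -0.65. Without replicate 1 of empty pLENTI6, Farsb was called at 0.10, and Pars2 and Sars2 were not, at -0.14 and -0.18. Without empty TPLKO replicate 3, 3 cytosolic genes were lower. Marker sums moved with this comparison as well: the fibroblast sum lay between 231 and 234 TPM in empty TPLKO and between 49.3 and 56.7 TPM in empty pLENTI6, and the squamous sum between 32.1 and 37.6 TPM in empty TPLKO and between 116 and 120 TPM in empty pLENTI6. The epithelial sum lay between 540 and 565 TPM in empty TPLKO and between 931 and 966 TPM in empty pLENTI6, and the alveolar and club cell sum between 43.5 and 45.2 TPM in empty TPLKO and between 99.9 and 104 TPM in empty pLENTI6. Their part in the synthetase differences was not tested.

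This comparison shares the empty TPLKO libraries with the sh3 comparison in UN-SCC679, so their values are given side by side and not tested against each other. Aars had 366 ± 2.95 CPM in sh3, 609 ± 9.0 CPM in empty TPLKO, 378 ± 6.36 CPM in OE_DSTYKwt and 349 ± 4.36 CPM in empty pLENTI6 (SD, n = 3 each). Gars had 286 ± 2.57 CPM in sh3, 426 ± 3.51 CPM in empty TPLKO, 269 ± 4.28 CPM in OE_DSTYKwt and 279 ± 4.95 CPM in empty pLENTI6 (SD, n = 3 each). Empty TPLKO had the highest mean of the 4 UN-SCC679 groups for 15 of the 20 cytosolic genes, and sh3 the lowest for 12. The main transcripts assigned also differed between the experiments: Wars-205 held 84.2% ± 6.97 of Wars TPM in UN-SCC679 empty TPLKO and 0.402% ± 0.696 in empty pLENTI6 (SD, n = 3 each), where another protein-coding transcript held most. Vector, doxycycline and experiment cannot be told apart here.

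LLC and UN-SCC679 differed at baseline. With empty TPLKO in both lines, 14 cytosolic synthetases were higher in LLC and 6 were lower, with a median of 0.35; 82.9% of the 14351 genes tested were called, 40.9% higher and 42.0% lower, with a median of -0.01. The lines did not overlap for 19 of the 20, where this held for 84.2% of all genes. Wars had 371, 380 and 375 CPM in LLC, against 140, 138 and 140 CPM in UN-SCC679, a 2.67-fold higher level (log2 change 1.42 ± 0.019 SE; edgeR adjusted p = 2.37e-14). Yars and Vars were higher by 1.32 and 1.2. Farsa, Kars and Tars were lower, at -0.40, -0.35 and -0.16. Of the 9 cytosolic class I enzymes, whose catalytic domain is a Rossmann fold, 8 were higher in LLC, with a median of 0.77, whereas the 10 class II enzymes were divided into 5 higher and 5 lower, with a median of 0.00. Eprs, which holds an enzyme of each class, was left out of both.

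The mitochondrial class was divided at baseline, with 8 higher in LLC, 7 lower and 2 not called, and with 5 higher on protein-coding transcripts alone. Aars2 had 30.9, 30.6 and 33.1 CPM in LLC, against 10.1, 11.2 and 11.6 CPM in UN-SCC679, a log2 change of 1.51 ± 0.0619 (SE; edgeR adjusted p = 4.23e-10). Iars2 was higher by 0.43. Wars2, Cars2 and Pars2 were lower, at -1.0, -0.99 and -0.63. Tarsl2 had 20.3, 18.3 and 19.5 CPM in LLC, against 49.6, 48.4 and 49.0 CPM in UN-SCC679, a log2 change of -1.35 ± 0.0428 (SE). The lines differ in mouse strain and labelled tumour type, and these cannot be told apart.

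**Figure D5:**
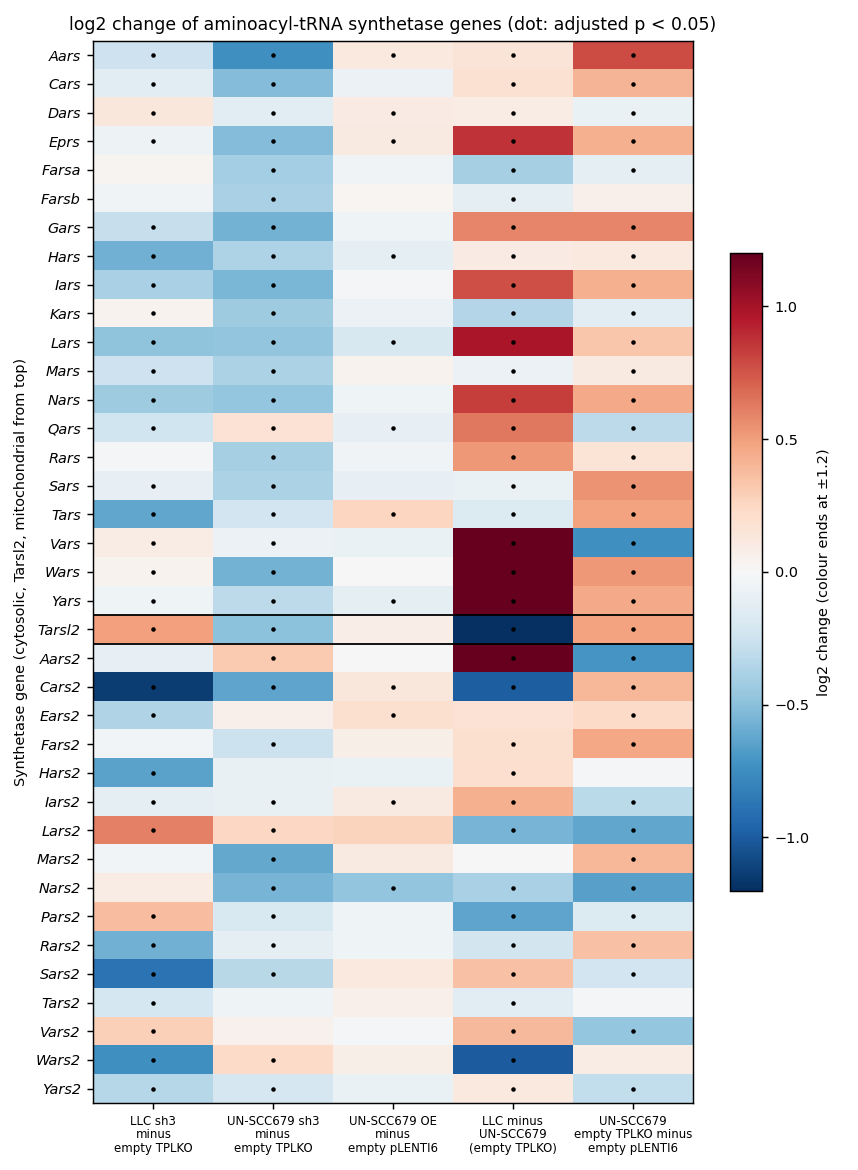
log2 change (colour, red higher and blue lower in the first-named group) of 37 synthetase genes (rows) in 5 comparisons (columns), with a dot where the edgeR adjusted p was under 0.05. The second column is blue for 19 of 20 cytosolic genes, the third column is pale, and the fifth column is red for 14 of the 20.

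Some members share sequence or position with other genes, and their counts are less certain. Shared stretches of 75 bases or more at 95% identity or more were found in 17 members, not all of which are named here. Tarsl2 shares 122 identical bases on the same strand with Tm2d3, which had 29.48 to 43.09 TPM. Cars2 shares 171 bases at 95.3% identity with Rpn2, which had 277.9 to 493.23 TPM, and 217 bases on the opposite strand with Naxd. Hars and Hars2 overlap by 195 bases on opposite strands, and Iars2 shares 2034 bases with Rab3gap2 on the opposite strand; whether counting used strand is not given in the sources used here. Iars shares 1656 bases at 96% identity with the pseudogene Gm4849, which reached at most 0.13 TPM.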

How the data were processed

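The submitters' processing notes name kallisto, sleuth and the mouse build mm10, with no version. Each deposited file holds an estimated count for every transcript, which the authors left without normalization, and an effective length that is the same for all libraries. Per the labels' protocols, stranded mRNA libraries were read for 75 bases, and both single-end and paired-end runs are named.

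Of 118489 listed transcripts, 116816 matched GENCODE M21 (GRCm38). The 1673 others held 0.515% to 0.593% of a library's counts and were left out. Gene values are sums of the deposited estimated counts, rounded to whole numbers. TPM was computed from the estimated counts and effective lengths. Tests used R 4.3.3 and edgeR 4.0.16: TMM scaling, the default filter (minimum count 10, total 15), the quasi-likelihood test and Benjamini-Hochberg adjustment over all tested genes, called at an adjusted p under 0.05. Standard errors came from the F statistic. Differences between effects were interactions over 12 libraries. The procedure was tested on simulated data. Shared sequence was searched with blastn 2.17.0 (75 bases or more at 95% identity or more). Alternatives were scaling by library size alone, DESeq2 1.42.0, no filter, a replicate block, effective length as an offset, leaving out each library, and, added after the data were seen, protein-coding transcripts only. The length offset was not run for the differences between effects.

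No library was a copy: replicates differed by a chi-square per gene of 1.92 or more. Reads carry no molecule tags, and the precision given covers only how these libraries vary, which may be technical.

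Groups come from the sample titles. The members and all gene lists were chosen with earlier results of these data known, so counts over them are descriptions. Named members are, in each comparison, the called ones of each class with the largest changes and no overlap between libraries (up to 4 each way, or 3 between lines and between empty vectors), with a few members and partner genes named whatever they did. A member and a sequence are counted above but not reported here.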

Additional observations from a re-analysis of the deposited data

Results flagged for a closer look

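Among the members reported by name, the sh3 effect of 8 was called in both lines but in opposite directions, and the test of the difference between the lines, LLC minus UN-SCC679, was called for each (edgeR adjusted p under 0.05). Wars differed by 0.61, Kars by 0.47, Dars by 0.28 and Vars by 0.15, each higher in LLC sh3 and lower in UN-SCC679 sh3. Tarsl2 differed by 0.97 and Pars2 by 0.55, in the same sense. Qars differed by -0.41 and Wars2 by -0.97, each lower in LLC sh3 and higher in UN-SCC679 sh3. The LLC calls of Kars and Wars rest on changes of 0.04, and that of Vars reversed with the effective length offset.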

How the results depend on the processing

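Of 3478 values of single members under alternatives, 3286 kept their direction and side of the threshold, 153 lost the call, 27 gained it and 12 reversed. With effective length as an offset, LLC sh3 gave -0.08 for Vars, 0.07 for Yars and -0.28 for Nars2, and empty TPLKO against empty pLENTI6 gave 0.08 for Qars, 0.11 for Tars2 and 0.04 for Vars2. With protein-coding transcripts only, Lars2 was -0.36 in LLC sh3, -0.23 in UN-SCC679 sh3, 0.05 between the lines at baseline and -0.08 in the difference of sh3 effects. On the same counts Lars was 0.08 in that difference, and Nars was -0.54 between the empty vectors. These follow from which transcripts are counted or how long they are; further causes were not tested.

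Counts of members moved as follows. Cytosolic genes higher in LLC sh3 numbered 2 with DESeq2 and 2 with no filter, and 2 to 3 when a library was left out. In UN-SCC679 sh3, cytosolic genes higher numbered 0 with the length offset, mitochondrial genes higher 2 with protein-coding transcripts only, and mitochondrial genes lower 5 with library size alone. In OE_DSTYKwt, mitochondrial genes higher numbered 1 with DESeq2 and 1 with protein-coding transcripts only; leaving out a library gave 1 to 5 for these, 2 to 5 for cytosolic genes higher and 2 to 6 for cytosolic genes lower. Mitochondrial genes higher in LLC at baseline numbered 5 with protein-coding transcripts only. Cytosolic genes lower in empty TPLKO than in empty pLENTI6 numbered 3 to 5 when a library was left out.

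Replicate numbers did not pair the libraries (correlations of deviations between -0.06 and 0.06). A replicate block left 19 cytosolic genes lower in UN-SCC679 sh3 and 13 in LLC sh3, and called 34 members as different between the lines and 26 between sh3 and OE_DSTYKwt.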
